A study of Mus musculus with 36 samples.

Results

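The aminoacyl-tRNA synthetases are the enzymes that attach each amino acid to its matching tRNA. A total of 35 synthetase genes were taken by symbol from a table of 56184 genes, and 35 were found under their current symbols. Of these, 19 encode cytosolic enzymes (symbols ending in 1, with Farsa and Farsb) and 16 encode mitochondrial enzymes (symbols ending in 2). The transcripts were measured by RNA-seq in brain tissue from Gpt2 knockout (KO) and wild-type (WT) mice that had received dm-αKG, the dimethyl ester of alpha-ketoglutarate, at 600 mg per kg into the peritoneum, or vehicle. The groups were KO mice given dm-αKG (KO-aKG, 8 libraries), KO mice given vehicle (KO-Veh, 10), WT mice given dm-αKG (WT-aKG, 8) and WT mice given vehicle (WT-Veh, 10). All brains were taken at postnatal day 19, and 10 mg of tissue was extracted per sample. The labels give neither the form of the Gpt2 allele nor the brain region, the sex or the number of injections.

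Gpt2 is the mitochondrial alanine transaminase, which makes alanine and alpha-ketoglutarate from pyruvate and glutamate. Cytosolic synthetases charge the tRNAs used by cytosolic ribosomes, whereas the mitochondrial enzymes are separate nuclear-encoded proteins that serve the ribosomes of the organelle. Kars1 and Gars1 are known to supply both compartments from a single gene, and mitochondrial glutaminyl-tRNA is made by an amidotransferase in place of a dedicated synthetase. Uncharged tRNA activates the kinase GCN2 (Eif2ak4), which raises translation of the transcription factor ATF4, and several cytosolic synthetase genes are known ATF4 targets in mammalian cells.

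Summed counts per library ran between 5768225, in KO-aKG, and 13267397, in WT-aKG. The targeted gene followed its labels: Gpt2 was at 1.12 to 3.18 CPM (counts scaled to the effective library size, TMM-normalized) in KO-aKG and 0.881 to 3.3 CPM in KO-Veh, against 26.3 to 38.1 CPM in WT-aKG and 22 to 39 CPM in WT-Veh. The defining transcripts of neurons, astrocytes, oligodendrocytes and microglia (5 of 5 in each list) had medians above 1 CPM, and the lowest summed level in any library was 48.6 CPM, for microglia. In 9 libraries the mean log2 level of cerebellar markers lay more than 1 above the mean of all libraries: 1 in KO-aKG, 1 in KO-Veh, 4 in WT-aKG and 3 in WT-Veh. These are called cerebellum-rich below, and counts are given with and without them. The mean log2 level of hypothalamus markers had a higher median in KO than in WT. It was 2.03 in KO-aKG, against 0.19 in WT-aKG, and 0.72 in KO-Veh, against 0.28 in WT-Veh, with overlapping ranges. The region scores used as covariates below are the marker means of cerebellum, of cortex with hippocampus, and of striatum. Hypothalamus markers were not adjusted for in any run. In bulk tissue, fewer cells of a type and less RNA per cell cannot be told apart.

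Promoter sequence was examined for the C/EBP-ATF composite element, the short DNA element that ATF4 is known to bind as a dimer with C/EBP proteins. The motif searched was TGATGNAA, equally TTNCATCA on the other strand, in RefSeq promoters of GRCm38.p6 reaching from 250 bases before to 50 bases after each gene's start. A promoter was present for 26 of the 35 synthetases. Of all 27025 genes with a promoter, 1219 (4.51%) held the motif. Among the synthetases it was held by 5 of 12 cytosolic genes (41.7%) and 0 of 14 mitochondrial genes. The 5 were Aars1, Gars1, Iars1, Tars1 and Yars1. A match in each is shown in a 30-base window because these 5 genes all belong to those that rose in KO brain. Each window reads 5′ to 3′ along the gene, with the match in capitals.

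Aars1, chr8:111033840-111033869 (+), match starting at 10: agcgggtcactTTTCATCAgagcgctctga

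Gars1, chr6:55037960-55037989 (+), match starting at -30: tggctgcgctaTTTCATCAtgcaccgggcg

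Iars1, chr13:49682126-49682155 (+), match starting at 8: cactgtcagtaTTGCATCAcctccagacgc

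Tars1, chr15:11399655-11399684 (-), match starting at -15: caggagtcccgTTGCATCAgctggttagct

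Yars1, chr4:129189895-129189924 (+), match starting at 4: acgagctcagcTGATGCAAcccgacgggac

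Match starts are counted from the first transcribed base, and negative positions lie before it. In 4 of the 5 genes, Aars1, Gars1, Iars1 and Tars1, the match shown reads in the TTNCATCA orientation, and in Yars1 it reads as TGATGNAA. Aars1 holds 2 matches, and the one not shown starts at -112 and has the same orientation. The 7 cytosolic genes with a promoter and no match were Eprs1, Farsa, Farsb, Kars1, Mars1, Qars1 and Sars1, of which Mars1 and Sars1 rose in KO brain. The 250 bases before the start of Sars1 are shown as an example of a gene that rose and has no match.

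Sars1, chr3:108445260-108445509 (-): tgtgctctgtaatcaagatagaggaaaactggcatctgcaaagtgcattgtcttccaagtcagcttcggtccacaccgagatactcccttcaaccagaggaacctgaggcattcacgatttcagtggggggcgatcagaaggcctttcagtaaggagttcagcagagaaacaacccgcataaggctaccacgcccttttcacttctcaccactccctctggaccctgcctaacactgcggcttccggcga

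A match describes letters only, and its absence from this window says nothing of the factor. Cars1, Hars1, Lars1, Nars1, Rars1, Vars1, Wars1, Hars2 and Pars2 were not examined.

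The first comparison was of genotype, within each treatment. Cytosolic synthetase transcripts were higher in KO brain, and mitochondrial ones gave no call. With dm-αKG, 12 of 19 cytosolic members rose in KO-aKG over WT-aKG and 0 fell, against a background of 1.12% of the 16255 genes tested called higher and 0.751% called lower. With vehicle, 11 of 19 rose in KO-Veh over WT-Veh and 0 fell, against a background of 2.60% called higher and 1.72% called lower. The KO libraries all lay above the WT libraries for 7 of 19 cytosolic members with dm-αKG, where 0.412% of genes did so, and for 6 of 19 with vehicle, where 0.240% did so. The background counts depended on single libraries: 182 genes were called higher and 122 lower with dm-αKG, but 90 and 43 without KO-aKG-8, and 422 and 279 with vehicle, but 741 and 921 without KO-Veh-7. A call is an adjusted p under 0.05 in edgeR's quasi-likelihood test with Benjamini-Hochberg adjustment over all genes tested. The 11 shared members were Aars1, Cars1, Gars1, Hars1, Iars1, Mars1, Nars1, Sars1, Tars1, Vars1 and Yars1, and Lars1 joined them with dm-αKG. No mitochondrial member was called in either direction: 0 of 16 with dm-αKG (0 with an unadjusted p under 0.05) and 0 of 16 with vehicle (1 with an unadjusted p under 0.05). DESeq2 also called 0 of 16 in both. The median log2 fold change of the cytosolic members was 0.56 with dm-αKG and 0.38 with vehicle. That of the mitochondrial members was -0.01 with dm-αKG and 0.10 with vehicle, and that of all genes tested was -0.02 in both. All 35 members passed the filter on low counts.

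**Figure D1:**
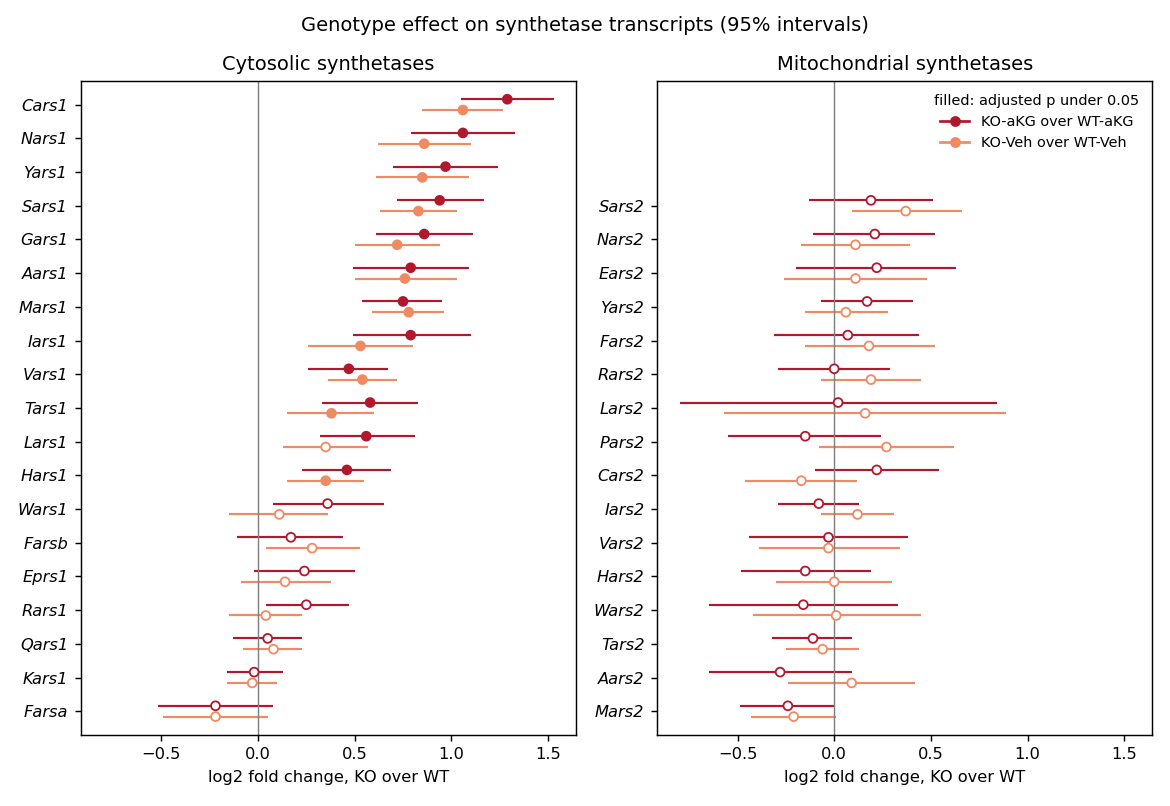
Log2 fold change of each synthetase transcript, KO-aKG over WT-aKG (dark) and KO-Veh over WT-Veh (light), with 95% intervals; filled points have an adjusted p under 0.05. Filled points occur in the cytosolic panel, from 0.35 (Hars1, vehicle) to 1.29 (Cars1, dm-αKG), and none occurs in the mitochondrial panel.

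Among the cytosolic enzymes that work outside the multisynthetase complex, 9 of 12 rose with each treatment. Cars1, which charges cysteine, gave the greatest fold change of the 35. Its levels were 17.7, 21.3 and 26.9 CPM (lowest, median and highest library) in KO-aKG, against 6.45, 9.23 and 10.5 CPM in WT-aKG. With vehicle they were 16.8, 23.1 and 27.5 CPM in KO-Veh, against 7.98, 10.6 and 14 CPM in WT-Veh. Every KO library lay above every WT library of the same treatment. The log2 fold change was 1.29 ± 0.12 (SE) with dm-αKG (edgeR adjusted p = 2.98e-09) and 1.06 ± 0.10 with vehicle (adjusted p = 1.16e-08).

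Nars1, the asparaginyl enzyme, had 58, 81.8 and 139 CPM (lowest, median and highest library) in KO-aKG, against 31.8, 42.6 and 50.6 CPM in WT-aKG. It had 70.3, 93.8 and 107 CPM in KO-Veh, against 41, 48 and 65.6 CPM in WT-Veh. The groups did not overlap with either treatment, and the log2 fold changes were 1.06 ± 0.13 (SE, dm-αKG) and 0.86 ± 0.12 (vehicle), with edgeR adjusted p = 2.07e-06 and 6.95e-06. Sars1, the seryl enzyme, likewise separated the genotypes fully. It had 65.3, 90.4 and 113 CPM in KO-aKG, against 43.7, 46.1 and 58.7 CPM in WT-aKG. It had 66.5, 92 and 114 CPM in KO-Veh, against 43.4, 49 and 64 CPM in WT-Veh. Its log2 fold changes were 0.94 ± 0.11 (dm-αKG) and 0.83 ± 0.10 (vehicle), with adjusted p = 7.48e-07 and 5.22e-07.

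Gars1, the glycyl enzyme, had 58, 75.6 and 119 CPM in KO-aKG, against 35.2, 43.2 and 56.7 CPM in WT-aKG. With vehicle it had 64.7, 73.7 and 97.3 CPM in KO-Veh, against 37.1, 44 and 60.5 CPM in WT-Veh. The groups did not overlap with either treatment, though the margin with dm-αKG was small. The log2 fold changes were 0.86 ± 0.12 (SE, dm-αKG) and 0.72 ± 0.11 (vehicle), with edgeR adjusted p = 2.16e-05 and 4.54e-05. The counts do not separate Gars1 transcripts for the cytosolic form from those for the mitochondrial form.

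Yars1, the tyrosyl enzyme, had 36.1, 43.5 and 54.3 CPM in KO-aKG, against 18.1, 22.2 and 28.3 CPM in WT-aKG. It had 34.5, 46.2 and 59.6 CPM in KO-Veh, against 20.5, 22.7 and 37 CPM in WT-Veh. The groups were apart with dm-αKG and overlapped with vehicle, where the highest WT-Veh library exceeded the lowest KO-Veh library. The log2 fold changes were 0.97 ± 0.13 (SE, dm-αKG) and 0.85 ± 0.12 (vehicle), with edgeR adjusted p = 1.09e-05 and 7.64e-06.

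Aars1, the alanyl enzyme, charges the amino acid that Gpt2 makes. It had 47.6, 56.8 and 70.9 CPM in KO-aKG, against 28.7, 32.6 and 41.4 CPM in WT-aKG. It had 41.3, 61.8 and 105 CPM in KO-Veh, against 27.6, 36.6 and 54.4 CPM in WT-Veh. The groups were apart with dm-αKG and overlapped with vehicle. Its log2 fold changes were 0.79 ± 0.15 (SE, dm-αKG) and 0.76 ± 0.13 (vehicle), with edgeR adjusted p = 0.00193 and 0.000367. Aars1 shares 1326 exon bases on the same strand with Exosc6, which had log2 fold changes of -0.36 and -0.30 that were not called (adjusted p = 0.268 and 0.222).

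Vars1, Tars1 and Hars1 rose less. Vars1, the valyl enzyme, had 13.9, 16.4 and 20.9 CPM in KO-aKG, against 9.75, 12.1 and 14.7 CPM in WT-aKG. It had 15.4, 18.6 and 24.3 CPM in KO-Veh, against 10.7, 12.7 and 14.9 CPM in WT-Veh. The groups were apart with vehicle and overlapped with dm-αKG. Tars1, the threonyl enzyme, had 16.1, 19.6 and 27.1 CPM in KO-aKG, against 12, 13.1 and 17 CPM in WT-aKG. It had 15.7, 20.3 and 26.7 CPM in KO-Veh, against 12, 15.4 and 19.8 CPM in WT-Veh, and its groups overlapped with both treatments. The log2 fold changes of Vars1 were 0.47 ± 0.10 (SE, dm-αKG) and 0.54 ± 0.09 (vehicle), with edgeR adjusted p = 0.00815 and 0.000188. Those of Tars1 were 0.58 ± 0.12 and 0.38 ± 0.11, with adjusted p = 0.0076 and 0.042. Hars1, the histidyl enzyme, gave 0.46 ± 0.11 and 0.35 ± 0.10, with adjusted p = 0.0232 and 0.0366, and its groups overlapped with both treatments. The calls of Tars1 with vehicle and of Hars1 with both treatments depended on single libraries, while those of Vars1 and of Tars1 with dm-αKG were kept in 36 of 36 omissions. The Tars1 call with vehicle was lost without any 1 of 13 libraries (WT-Veh-2, 4, 5, 6, 7, 8 or 10, and KO-Veh-1, 3, 4, 5, 9 or 10), with log2 fold changes of 0.33 to 0.39. The Hars1 call with vehicle was lost without any 1 of 12 (WT-Veh-1, 4, 6, 7 or 9, and KO-Veh-1, 3, 4, 5, 6, 9 or 10), with 0.31 to 0.35. Its call with dm-αKG was lost without WT-aKG-6, KO-aKG-2 or KO-aKG-8, with 0.40 to 0.43. Of 8 other settings of the analysis, 2 kept the Hars1 call with vehicle and 5 kept that with dm-αKG. The vehicle call was lost with the replicate number as a block (0.35), no filter, or only the 2 groups compared. It was also lost without the cerebellum-rich libraries, with region scores as covariates, and with limma on the deposited CPM. For Tars1, 5 of the 8 kept the call with vehicle and 7 that with dm-αKG, which limma lost.

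**Figure D2:**
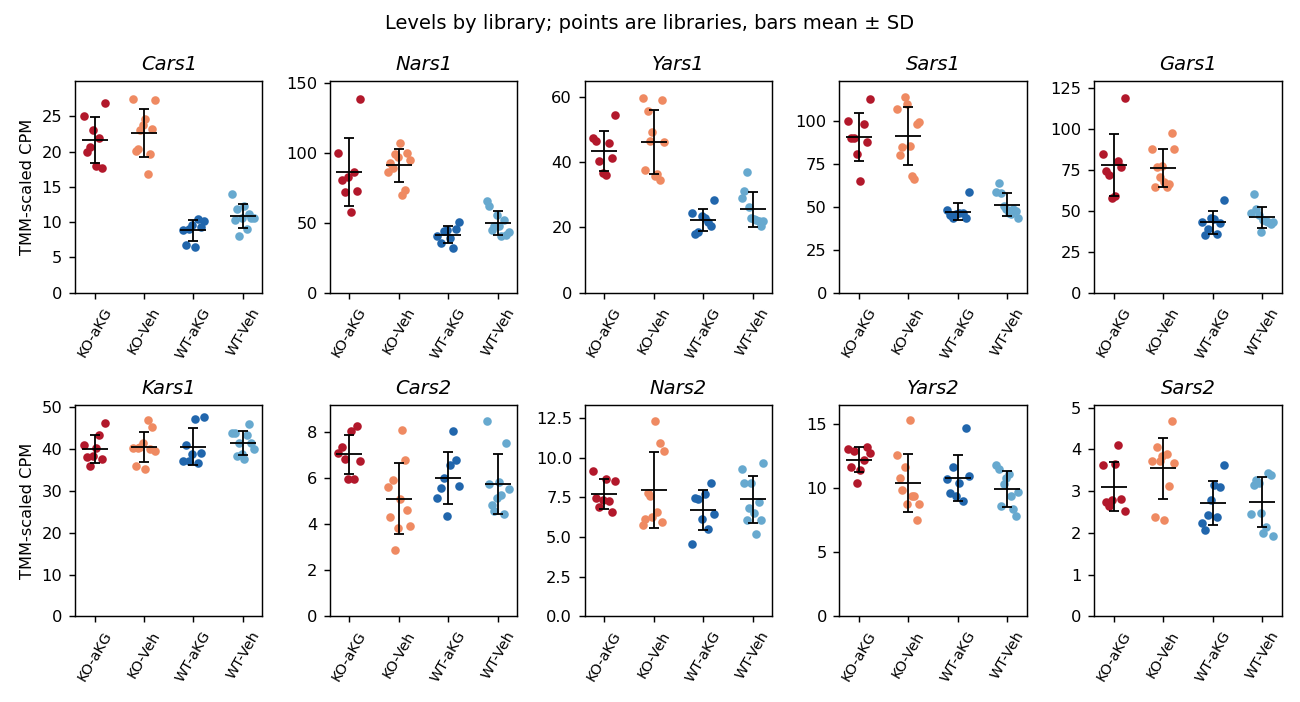
Level (TMM-scaled CPM) of 10 synthetase transcripts in each library of KO-aKG, KO-Veh, WT-aKG and WT-Veh; points are libraries and bars are mean ± SD. Cars1, Nars1, Yars1, Sars1 and Gars1 (upper row) stand higher in both KO groups, whereas Kars1 and the mitochondrial Cars2, Nars2, Yars2 and Sars2 (lower row) overlap across all 4 groups.

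The multisynthetase complex, an assembly of cytosolic synthetases on scaffold proteins, takes in 7 of the cytosolic members (Eprs1, Iars1, Kars1, Lars1, Mars1, Qars1 and Rars1). Of these, 3 of 7 rose with dm-αKG (Iars1, Lars1 and Mars1) and 2 of 7 with vehicle (Iars1 and Mars1). The median log2 fold change of the 7 was 0.25 with dm-αKG and 0.14 with vehicle, beside 0.69 and 0.63 for the 12 members outside the complex. By catalytic class the counts were alike. Class I enzymes rose in 6 of 9 with dm-αKG and 5 of 9 with vehicle, and class II enzymes in 6 of 9 with each treatment, leaving out Eprs1, which holds a domain of either class. None of these differences between lists was tested.

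Mars1, the methionyl enzyme, had 12.1, 14.5 and 20.1 CPM in KO-aKG, against 7.54, 9.02 and 9.8 CPM in WT-aKG. It had 13.4, 15.7 and 17.9 CPM in KO-Veh, against 6.9, 8.77 and 12.7 CPM in WT-Veh. The groups did not overlap with either treatment. The log2 fold changes were 0.75 ± 0.10 (SE, dm-αKG) and 0.78 ± 0.09 (vehicle), with edgeR adjusted p = 1.34e-05 and 4.92e-07. Mars1 shares 68 exon bases with Ddit3 on the opposite strand, and Ddit3, a stress-induced transcription factor gene, rose by log2 1.76 with dm-αKG and 1.85 with vehicle. Whether reads were assigned by strand is not stated in the labels, and the part of Ddit3 reads in the Mars1 value was not tested.

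Iars1, the isoleucyl enzyme, had 17.7, 20.9 and 31.5 CPM in KO-aKG, against 9.32, 12.5 and 18.4 CPM in WT-aKG. It had 15.9, 20.9 and 24.6 CPM in KO-Veh, against 10.8, 13.5 and 24.1 CPM in WT-Veh. The groups overlapped with both treatments. The log2 fold changes were 0.79 ± 0.15 (SE, dm-αKG) and 0.53 ± 0.13 (vehicle), with edgeR adjusted p = 0.00239 and 0.0184. Lars1, the leucyl enzyme that is also known as a leucine sensor for mTORC1, had 28.7, 35.5 and 44.3 CPM in KO-aKG, against 19.9, 24.8 and 28.8 CPM in WT-aKG. It had 32.6, 37.6 and 41.4 CPM in KO-Veh, against 21.5, 26.6 and 48.6 CPM in WT-Veh. The dm-αKG groups overlapped by a narrow margin, and with vehicle the highest value of all was the library WT-Veh-1. The log2 fold changes of Lars1 were 0.56 ± 0.12 with dm-αKG (adjusted p = 0.00746) and 0.35 ± 0.11 with vehicle (adjusted p = 0.053). The vehicle value passed the test without WT-Veh-1, WT-Veh-9, KO-Veh-3, KO-Veh-7, KO-aKG-1 or KO-aKG-3, and with the replicate number as a block.

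The 7 cytosolic members that passed the test with neither treatment were Eprs1, Farsa, Farsb, Kars1, Qars1, Rars1 and Wars1. Kars1, the lysyl enzyme, had 35.8, 39.2 and 46.2 CPM in KO-aKG, 35.2, 40.2 and 46.9 CPM in KO-Veh, 36.7, 38.9 and 47.5 CPM in WT-aKG, and 37.5, 41.5 and 46 CPM in WT-Veh. These ranges nearly coincide, and the 95% intervals of its log2 fold change ran between -0.16 and 0.13 with dm-αKG and between -0.16 and 0.10 with vehicle. Qars1, the glutaminyl enzyme, had log2 fold changes of 0.05 (95% interval -0.13 to 0.23, dm-αKG) and 0.08 (-0.08 to 0.23, vehicle). The 2 subunits of the phenylalanyl enzyme had estimates of opposite sign: Farsa, the alpha subunit, had -0.22 with each treatment, and Farsb, the beta subunit, had 0.17 with dm-αKG and 0.28 with vehicle. Their adjusted p-values in edgeR ran between 0.166 and 0.583. Wars1 (tryptophan) had 0.36 with dm-αKG and 0.11 with vehicle, Rars1 (arginine) 0.25 and 0.04, and Eprs1 (glutamate and proline) 0.24 and 0.14. The intervals of these 7 reached at most 0.65 with dm-αKG. Genotype averaged over treatments narrowed the intervals and again called 12 of 19 cytosolic members higher, with 17 of 19 at an unadjusted p under 0.05. Those 17 took in all 12 members outside the complex, with estimates from -0.22 to 1.17. It called 0 of 16 mitochondrial members (2 with an unadjusted p under 0.05, 0 in DESeq2). The background was 5.70% of genes called higher and 6.17% called lower. A mitochondrial member was called there without any 1 of 5 libraries: Mars2 lower without WT-Veh-8, WT-aKG-2 or KO-aKG-8, and Sars2 higher without WT-aKG-8 or KO-Veh-6.

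Mitochondrial synthetases had log2 fold changes between -0.28 (Aars2) and 0.22 (Cars2 and Ears2) with dm-αKG and between -0.21 (Mars2) and 0.37 (Sars2) with vehicle. With dm-αKG, 8 estimates lay above 0 and 8 below, and with vehicle, 12 lay above and 4 below. Sars2, the seryl enzyme, had 2.52, 2.8 and 4.1 CPM in KO-aKG, against 2.07, 2.61 and 3.62 CPM in WT-aKG. It had 2.32, 3.73 and 4.69 CPM in KO-Veh, against 1.93, 2.81 and 3.44 CPM in WT-Veh. These ranges overlapped, and its log2 fold change with vehicle was 0.37 ± 0.14 (SE, edgeR adjusted p = 0.118). Mars2, the methionyl enzyme, had estimates below 0 with both treatments, -0.24 ± 0.12 with dm-αKG (adjusted p = 0.326) and -0.21 ± 0.11 with vehicle (adjusted p = 0.267).

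Most mitochondrial members had lower counts than the cytosolic ones. Median raw counts per library were 20 for Pars2, 25 for Wars2, 27 for Ears2 and 31 for Sars2, whereas Fars2 had 242, Iars2 286 and Lars2 1625. The intervals of the 16 reached between -0.80 and 0.84 with dm-αKG and between -0.57 and 0.89 with vehicle. For 8 of 16 with dm-αKG and 12 of 16 with vehicle, the whole interval lay within 0.5 of 0 on the log2 scale. Lars2, the mitochondrial leucyl enzyme, was the most variable member in every group, with coefficients of variation of 56.1% in KO-aKG, 66.3% in KO-Veh, 63% in WT-aKG and 51.8% in WT-Veh. It had 89.1, 190 and 422 CPM in KO-aKG, 76, 162 and 484 CPM in KO-Veh, 71.4, 143 and 378 CPM in WT-aKG, and 76, 130 and 310 CPM in WT-Veh. Its range within each group was wider than the differences between the group medians. The highest Lars2 library was also the highest for the mitochondrial ribosomal RNA mt-Rnr1 in KO-aKG (KO-aKG-3), KO-Veh (KO-Veh-4) and WT-aKG (WT-aKG-2). In WT-Veh the highest library was WT-Veh-3 for Lars2 and WT-Veh-5 for mt-Rnr1. For mt-Rnr2 the highest library matched that of Lars2 in KO-Veh and WT-aKG only. Whether the Lars2 count is linked to these RNAs was not tested.

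**Figure D3:**
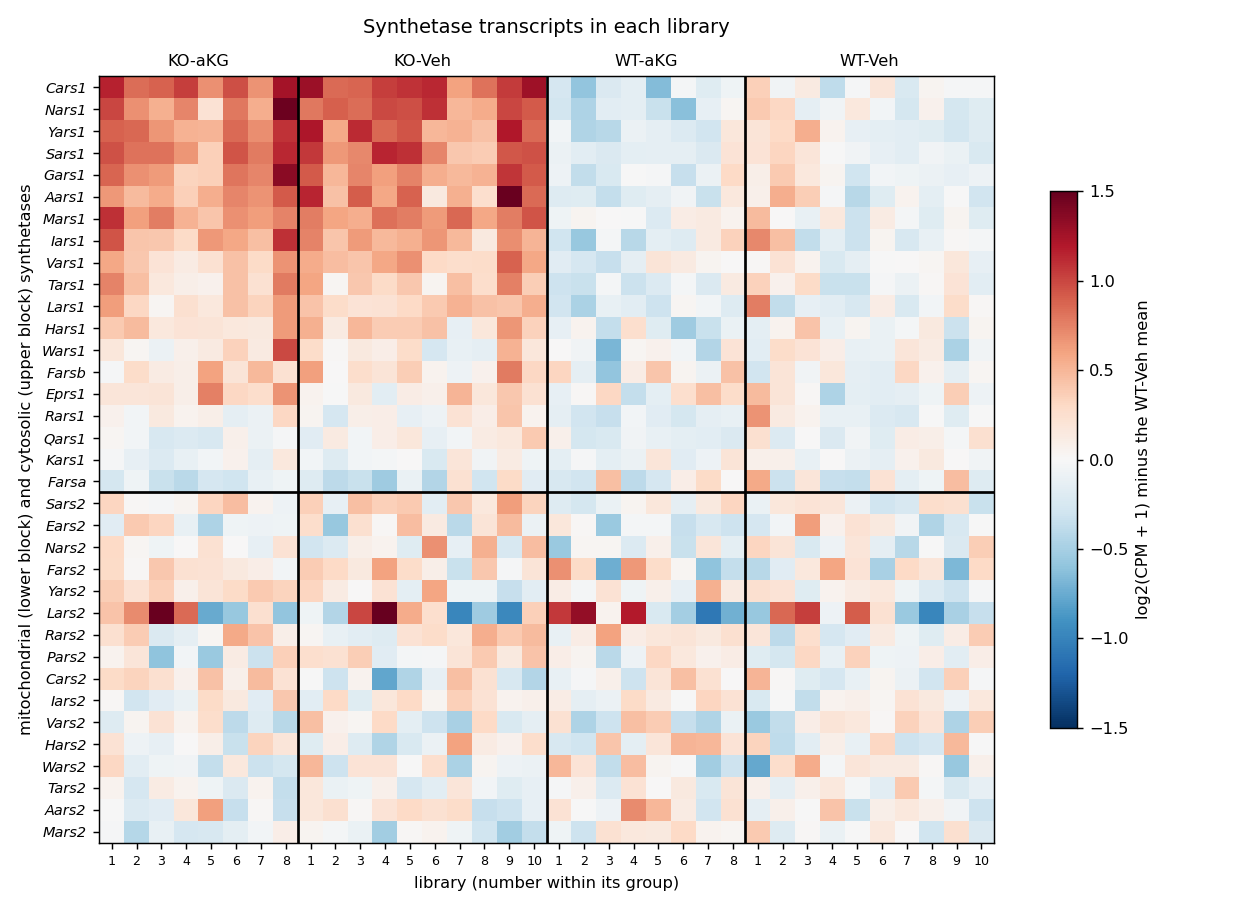
Each row is a synthetase, with cytosolic ones above the line, and each column a library of KO-aKG, KO-Veh, WT-aKG or WT-Veh; colour gives log2(CPM + 1) minus the WT-Veh mean, with values beyond 1.5 shown at the end of the scale. The upper rows of the cytosolic block are red across both KO groups, and the Lars2 row is mixed within every group.

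To compare the compartments directly, the log2 ratio of the cytosolic to the mitochondrial transcript was formed within each library for 16 pairs that serve the same amino acid. Eprs1 was paired with both Ears2 and Pars2, and Farsa with Fars2. The ratio itself depends on gene length and counting, so its difference between genotypes alone was tested, by 2-sided permutation, with 32 tests in all and p-values not adjusted. The ratio was higher in KO with p under 0.05 for 9 of 16 pairs with dm-αKG and 9 of 16 with vehicle, and no pair passed in the other direction. The median difference over the 16 pairs was 0.63 with dm-αKG and 0.43 with vehicle. Pairs for alanine, cysteine, isoleucine, methionine, asparagine, serine, threonine and tyrosine passed with both treatments, histidine with dm-αKG and valine with vehicle. Without the cerebellum-rich libraries, 11 of 16 pairs passed with dm-αKG (histidine lost, valine, tryptophan and the Eprs1 to Pars2 pair gained) and 9 of 16 with vehicle.

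The methionine pair separated the genotypes fully with both treatments. Its log2 ratio (lowest, median and highest library) was 0.94, 1.12 and 1.45 in KO-aKG, against -0.12, 0.16 and 0.65 in WT-aKG. It was 0.89, 1.14 and 1.73 in KO-Veh, against -0.08, 0.27 and 0.54 in WT-Veh. The differences were 0.96 (exact permutation p = 0.000155, the smallest this design allows) and 0.98 (permutation p = 2e-05, the smallest that 100000 resamples can give).

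The isoleucine and tyrosine pairs were also apart with dm-αKG. Iars1 over Iars2 averaged -0.22 ± 0.20 in KO-aKG, against -1.10 ± 0.29 in WT-aKG (SD, n = 8 each, exact permutation p = 0.000155). Yars1 over Yars2 averaged 1.81 ± 0.17 in KO-aKG, against 1.03 ± 0.32 in WT-aKG (SD, n = 8 each, exact permutation p = 0.000155). For alanine, whose synthesis involves Gpt2, the ratio averaged 4.17 ± 0.51 in KO-aKG, against 3.12 ± 0.35 in WT-aKG (SD, n = 8 each, exact permutation p = 0.000466). With vehicle the alanine ratio averaged 4.16 ± 0.58 in KO-Veh, against 3.50 ± 0.32 in WT-Veh (SD, n = 10 each, permutation p = 0.00368). The phenylalanine pair had differences of -0.34 with dm-αKG (exact permutation p = 0.31) and -0.42 with vehicle (permutation p = 0.159). The leucine pair had differences of 0.47 and 0.30 (p = 0.353 by exact permutation and 0.482 by permutation), with SDs between 0.93 and 1.06 that came with the spread of Lars2.

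**Figure D4:**
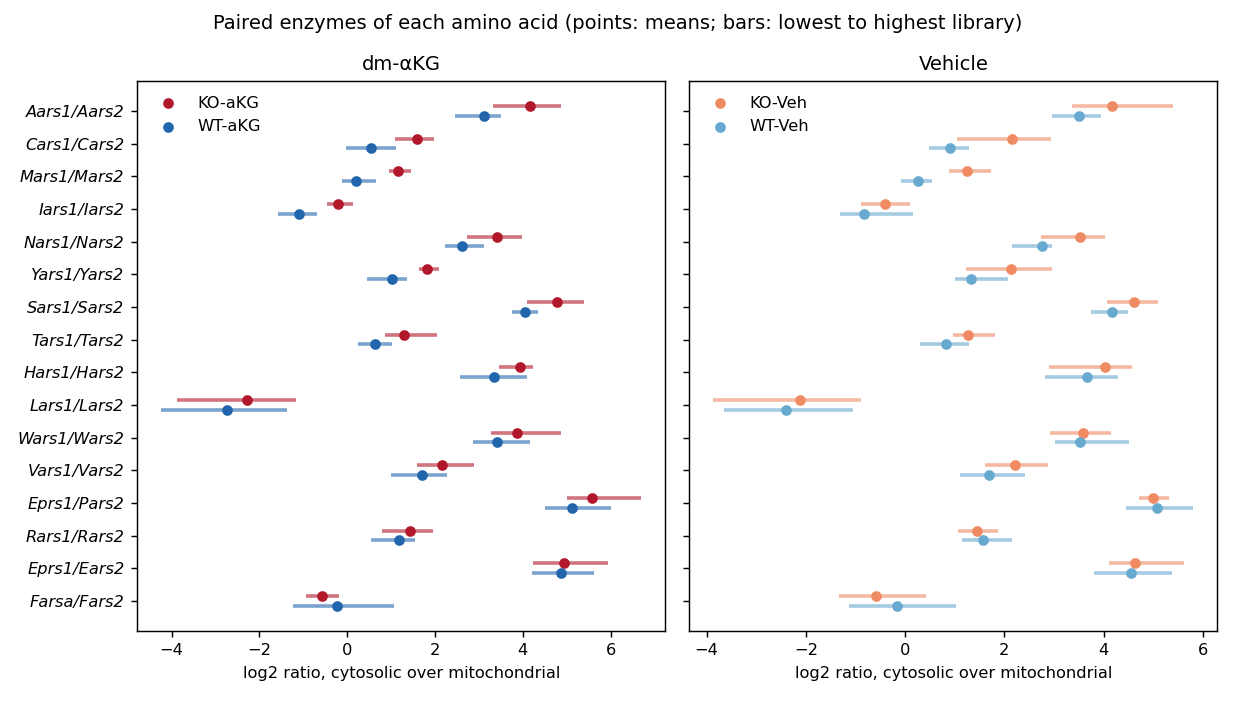
Log2 ratio of the cytosolic over the mitochondrial synthetase of the same amino acid, KO-aKG above WT-aKG (left panel) and KO-Veh above WT-Veh (right panel); points are group means and bars run over the lowest to the highest library. The methionine bars are apart in both panels, and the phenylalanine and leucine bars overlap widely.

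The second comparison was of dm-αKG with vehicle, within each genotype. No synthetase passed the test, and no gene of the 16255 was called in either genotype (background 0%), although 1973 genes in KO and 1389 in WT brain had an unadjusted p under 0.05. In KO brain, edgeR called 0 of 19 cytosolic members (1 with an unadjusted p under 0.05) and 0 of 16 mitochondrial members (3 under 0.05). In WT brain it called 0 of 19 (3 under 0.05) and 0 of 16 (0 under 0.05). DESeq2 called none of the 35 in either genotype, and 27 genes higher and 2 lower over the whole table in WT brain. The median log2 fold change of the cytosolic members, KO-aKG over KO-Veh, was -0.03, and their 95% intervals ran between -0.44 and 0.43. In WT brain the median, WT-aKG over WT-Veh, was -0.15, with 17 of 19 estimates below 0 and intervals between -0.52 and 0.35. The lowest estimates in WT brain were those of Cars1 (-0.29, edgeR adjusted p = 0.42) and Nars1 (-0.27, adjusted p = 0.535).

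Whether the genotype effect differed between treatments was tested by the interaction term. It called 0 of 19 cytosolic and 0 of 16 mitochondrial members in edgeR and in DESeq2 (0 and 0 with an unadjusted p under 0.05 in edgeR), with 0 of 16255 genes called and 729 with an unadjusted p under 0.05. The estimates, the effect with dm-αKG minus the effect with vehicle, had a median of 0.11 over the cytosolic members, with 95% intervals between -0.48 and 0.67. The larger fold changes seen with dm-αKG, such as those of Cars1 and Iars1, were not told apart from those with vehicle at this sample size. Both genotype comparisons and both treatment comparisons share libraries, so they are given side by side only.

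Across libraries, the mean log2 CPM of the cytosolic members (lowest, median and highest) was 4.93, 5.06 and 5.44 in KO-aKG, against 4.42, 4.55 and 4.78 in WT-aKG. It was 4.94, 5.11 and 5.42 in KO-Veh, against 4.51, 4.64 and 4.95 in WT-Veh. The dm-αKG groups did not overlap, and the vehicle groups met at the library WT-Veh-1. The same mean over the mitochondrial members was 2.83, 2.90 and 3.02 in KO-aKG, against 2.74, 2.87 and 3.09 in WT-aKG, and 2.77, 2.94 and 3.02 in KO-Veh, against 2.70, 2.85 and 3.02 in WT-Veh. No test is given for these means.

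**Figure D5:**
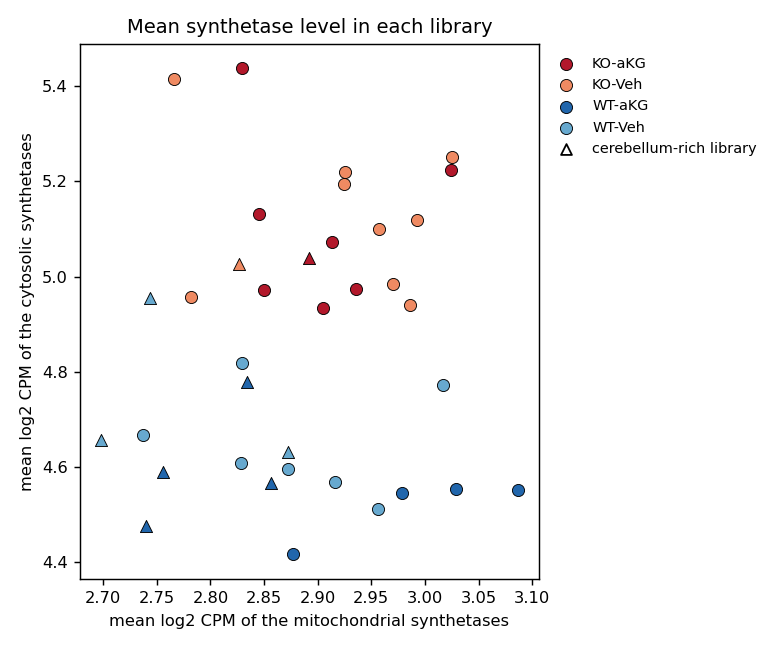
Mean log2 CPM of the 19 cytosolic (vertical) and 16 mitochondrial (horizontal) synthetases in each library of KO-aKG, KO-Veh, WT-aKG and WT-Veh; triangles are cerebellum-rich libraries. The KO libraries lie between 4.93 and 5.44 on the vertical axis and the WT libraries between 4.42 and 4.95, while all share the range from 2.70 to 3.09 on the horizontal axis.

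In each of the 4 groups, many cytosolic members peaked in the same library. The library KO-aKG-8 held the highest value of its group for 15 of 19 cytosolic members, and KO-Veh-9 for 9 of 19. In WT brain, WT-aKG-8 held it for 10 of 19 and WT-Veh-1 for 9 of 19. The share of all genes that peaked in these libraries is not given here. Both KO-aKG-8 and KO-Veh-9 also had the lowest mitochondrial mean of their group. KO-aKG-8 had the highest oligodendrocyte marker mean of KO-aKG (log2 CPM 10.48), and KO-Veh-9 the highest hypothalamus marker mean of KO-Veh (5.06). The part of tissue composition in these values was not tested. The highest cytosolic mean within WT-aKG was that of WT-aKG-8 and within WT-Veh that of WT-Veh-1, both cerebellum-rich. The next in WT-Veh, WT-Veh-2 at 4.82, was not cerebellum-rich and lay above WT-aKG-8 at 4.78.

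Leaving out the 9 cerebellum-rich libraries kept the counts at 12 of 19 cytosolic members with dm-αKG (Eprs1 gained, Hars1 lost) and 11 of 19 with vehicle (Lars1 gained, Hars1 lost), and mitochondrial members at 0. The cytosolic median log2 fold change was then 0.71 with dm-αKG and 0.54 with vehicle. Of the 16524 genes tested in that run, 217 were called higher and 382 lower with dm-αKG, and 369 higher and 254 lower with vehicle. The libraries left numbered 7 in KO-aKG, 4 in WT-aKG, 9 in KO-Veh and 7 in WT-Veh.

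Related genes of tRNA charging and use were read from the same fit. Of the 3 scaffold proteins of the multisynthetase complex, Aimp1 rose with dm-αKG (log2 0.34, edgeR adjusted p = 0.0368) and with vehicle (0.45, adjusted p = 0.000538). Eef1e1 rose with vehicle (0.38, adjusted p = 0.0291) and had 0.38 with dm-αKG (adjusted p = 0.0828). Aimp2 had 0.31 and 0.22, not called in either, and all 3 were called when the treatments were averaged. Xpot, the exporter of tRNA from the nucleus, rose with dm-αKG (log2 0.57, adjusted p = 0.0177) and with vehicle (0.64, adjusted p = 0.00108). Xpot had 31.9, 33.8 and 43.3 CPM in KO-aKG, against 19.2, 25.7 and 30 CPM in WT-aKG, without overlap. It had 21.2, 41.6 and 48.1 CPM in KO-Veh, against 17.5, 26 and 33.3 CPM in WT-Veh, where the groups overlapped.

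Tars3, a threonyl enzyme that is not among the 35, had log2 fold changes of 0.32 with dm-αKG and 0.38 with vehicle, called only when the treatments were averaged (0.35, edgeR adjusted p = 0.00798). No member of 4 mitochondrial charging partners (Qrsl1, Gatb, Gatc, Mtfmt), 4 editing proteins, 2 selenocysteine enzymes, 6 cytosolic or 4 mitochondrial elongation factors was called in either comparison by edgeR. Unadjusted p-values under 0.05 numbered 0 with dm-αKG and 0 with vehicle among the charging partners, 1 and 1 among the editing proteins, 0 and 1 for selenocysteine, 0 and 2 for cytosolic elongation and 1 and 1 for mitochondrial elongation. With the treatments averaged, the editing protein Aarsd1 (0.28) and the selenocysteine kinase Pstk (0.29) were called higher and the mitochondrial elongation factor Tufm (-0.26) lower.

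Of 4 genes of tRNA sensing, Atf4 was higher in KO brain. It had 89.4, 103 and 127 CPM in KO-aKG, against 45.6, 65.4 and 71.6 CPM in WT-aKG, and 72.4, 109 and 144 CPM in KO-Veh, against 46.2, 61.4 and 87.5 CPM in WT-Veh. Its groups were apart with dm-αKG and overlapped with vehicle, and its log2 fold changes were 0.74 and 0.81 (edgeR adjusted p = 0.000281 and 5.46e-06). Gcn1, an activator of the kinase GCN2, fell with vehicle (-0.29, adjusted p = 0.0382) and had -0.09 with dm-αKG (adjusted p = 0.675). The kinase gene Eif2ak4 itself had -0.11 and 0.04, and Impact, an inhibitor of GCN2 activation, had 0.80 and 0.06, none of them called. All 5 known stress-response genes listed (Ddit3, Asns, Trib3, Chac1 and Sesn2) rose with both treatments, with medians of 1.76 with dm-αKG and 1.85 with vehicle on the log2 scale.

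Some members share exon sequence with a neighbouring gene, so their counts are uncertain. Beside Aars1 and Mars1, Hars1 and Hars2 share 195 exon bases on opposite strands, Iars2 shares 2034 with Rab3gap2, Fars2 shares 501 with Nrn1, Cars2 shares 422 with Naxd and Farsb shares 248 with Sgpp2. None of Rab3gap2, Nrn1, Naxd and Sgpp2 was called in either genotype comparison, though Sgpp2 had log2 fold changes of -1.12 with dm-αKG (edgeR adjusted p = 0.402) and -1.38 with vehicle (adjusted p = 0.162). Iars1 is 96.0% identical to Gm4849 over 1656 aligned bases, so reads could be split between them.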

How the data were processed

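Whole-transcriptome libraries of 36 brain samples were analysed. Per the labels' protocols, poly(A) RNA was captured with primers that carried a molecular identifier as well as a sample barcode, and was then tagmented. The submitters' processing notes list featureCounts 2.0.6 as a counter, HISAT2 2.2.1 as an aligner and Trim Galore 0.6.10 as a trimmer, with FastQC 0.12.1, deepTools and SAMtools 1.6, and both mm39 and mm10 with no role for either. Strand assignment and collapsing of identifiers are not stated. The authors deposited estimated counts per gene, some not whole, which were rounded. The authors also deposited CPM for 21637 genes, of which 85.6 to 88.7% of values per library gave whole reads (within 0.02), and these differed from the counts by up to 2.5.

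Summed counts per library were 5768225 to 13267397, and 23332 or more genes differed between any 2 libraries of a group. The labels call the samples biological replicates, and p-values rest on that. Genes passing filterByExpr (16255) were fitted with edgeR 4.0.16 (quasi-likelihood, robust, TMM, R 4.3.3) in 1 model of 4 groups, with Benjamini-Hochberg adjustment over all of them and a threshold of 0.05. Printed levels are TMM-scaled CPM. Ratios used log2 CPM with a prior count of 2 and permutation in scipy 1.17.1. Alternatives used DESeq2 1.42.0, limma 3.58.1 (log2(CPM + 1)), other scaling, filters and samples. The edgeR step was also run on simulated counts, with the same spread set for every gene and no differences in tissue composition. That run therefore cannot speak for the regional spread of these libraries, and its outcome is not given here.

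The members and the gene lists were chosen with earlier results of these data known. Values by library are given for members called with an absolute log2 fold change of at least 0.5 in a genotype comparison. Kars1, Lars2, Sars2, Mars2, Xpot and Atf4 were added after their values were seen. Exon overlaps come from GENCODE M21. Protein sequences were not used here. Some items are not reported here.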

Additional observations from a re-analysis of the deposited data

Results flagged for a closer look

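In 10 of 140 sets of 1 member in 1 group, the highest library stood apart from the next by more than Dixon's 95% critical value, and chance gives about 1 in 20 such sets. In KO-aKG, Gars1 reached 119 CPM and Wars1 54.8 CPM in KO-aKG-8, Mars1 20.1 CPM in KO-aKG-1 and Aars2 5.3 CPM in KO-aKG-5. In WT-aKG, Sars1 reached 58.7 CPM in WT-aKG-8, Rars2 11.1 CPM in WT-aKG-3 and Yars2 14.7 CPM in WT-aKG-7. In WT-Veh, Lars1 reached 48.6 CPM and Rars1 34.1 CPM in WT-Veh-1, and Ears2 4.69 CPM in WT-Veh-3. WT-aKG-8 and WT-Veh-1 were cerebellum-rich, and the part of tissue composition in their values was not tested.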

How the results depend on the processing

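No called genotype effect, and no ratio with p under 0.05, reversed under any alternative run. Values that were not called are outside this statement. With limma on the deposited CPM, the cytosolic treatment median in KO brain was 0.13 (-0.03 in the main fit). The mitochondrial genotype median with dm-αKG was 0.13 (-0.01 in the main fit). The medians of all genes in these limma runs were 0.13 and 0.14. For the called genotype effects, all of cytosolic members, 253 of 268 values kept their call when the tool, scaling, filter, samples or covariates were changed. The other 15 lost it. With single libraries left out, 1232 of 1260 kept it. These numbers count losses only, and members that gained a call are not in them. Lars1 with vehicle gained one with DESeq2, the replicate block, region scores as covariates and without the cerebellum-rich libraries. Eprs1 with vehicle gained one with region scores as covariates. The cytosolic count with vehicle was 7 with limma on the deposited CPM, where Hars1, Iars1, Tars1 and Vars1 were lost; the cause was not tested. The averaged count of mitochondrial members called ran between 0 and 1 with single libraries left out. Leaving out single libraries gave 11 to 12 cytosolic calls with dm-αKG and 9 to 12 with vehicle. Without the cerebellum-rich libraries the ratio of Hars1 to Hars2 with dm-αKG lost its call, at 0.19 (exact permutation p = 0.345), and 3 ratios gained one: Eprs1 to Pars2 (0.75, exact permutation p = 0.0121), Wars1 to Wars2 (0.71, p = 0.0182) and Vars1 to Vars2 (0.74, p = 0.0424). Replicate numbers were not taken to pair the samples. Pairs of the same number correlated above 0.1 in 7 of 8 cases between KO-aKG and WT-aKG (median r 0.435). Between KO-Veh and WT-Veh, 3 of 10 pairs did (median -0.037), and 3 to 7 pairs did over all 6 pairings of groups. Of 36 libraries, 9 were closest to a library of their own number, and the number expected without pairing is not given here. These values are not a test of pairing, and shared structure by number is not excluded. With the replicate block, 12 cytosolic members were called with dm-αKG and 11 with vehicle, where Lars1 was gained and Hars1 lost, and 0 mitochondrial.

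Over all genes, calls with vehicle numbered 422 higher and 279 lower; they were 243 and 105 with no filter, 216 and 108 with only the 2 groups compared, 621 and 564 with region scores as covariates, and 150 and 24 with limma. Without single libraries they reached 741 and 921 (KO-Veh-7), 302 and 138 (KO-Veh-10), 292 and 175 (KO-Veh-4), 352 and 184 (KO-Veh-5), 330 and 169 (WT-Veh-2) and 316 and 172 (WT-Veh-6). With dm-αKG, 182 were higher and 122 lower; they were 96 and 49 with no filter, 217 and 382 without the cerebellum-rich libraries, 279 and 212 with DESeq2, and 211 and 5 with limma, which moved the median of all genes to 0.14. Without single libraries they reached 90 and 43 (KO-aKG-8), 115 and 48 (KO-aKG-2), 144 and 62 (KO-aKG-5), 140 and 77 (KO-aKG-1), 100 and 45 (WT-aKG-6) and 120 and 68 (WT-aKG-1). Counts of 20 to 40 reads per library limit the smallest mitochondrial members.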
